A study of Caenorhabditis elegans with 2 samples.

Results

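The Pumilio (PUF) genes of Caenorhabditis elegans described here are puf-9, fbf-1, fbf-2, puf-8, puf-3, puf-11, puf-5, puf-6, puf-7 and puf-12, 10 of the 19973 nuclear protein-coding genes of the annotation. They were chosen by name, as the family of puf-9, and puf-9 itself was chosen by its score, because one of the highest nuclear peaks of the series lies in front of it. Its scores are therefore given as a description, without a test. For each gene, every region was taken whose summit lay between 1500 bp upstream of the 5′ end and the end of the gene, which is called the window of the gene. No other gene of the annotation has a puf or fbf name.

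The regions come from chromatin immunoprecipitation and sequencing of ZTF-11, a zinc finger transcription factor of the MYT1 family, in whole second-stage (L2) larvae of mixed sex. The only group was strain OP236, of genotype unc-119(ed3) III with the integrated transgene wgIs236, from which ZTF-11 is stably expressed with GFP and FLAG at its C terminus, in 2 biological replicates. The labels do not give the promoter of the transgene or its copy number, and they name no other strain or treatment. The authors deposited a list of 30000 regions for each replicate, a pooled list of 20223, and 210 peaks that passed their irreproducibility threshold, here called thresholded peaks. They named the pooled list as peaks and background, the input to that threshold. Its deposited −log10 q goes down to 0.018, and that of replicates 1 and 2 to 0.039 and 0.061. A region outside the thresholded list is therefore not by itself a site of binding. Each region carries a score, the authors' signal value relative to a control on a scale that the sources used here do not give. The lowest scores listed were 9.17 in the pooled list, 4.72 in replicate 1 and 3.90 in replicate 2, so a gene without a region had no region above those levels, and scores are compared only within a list. Read depth is unknown. In whole larvae, binding in a few cells and weak binding in many cannot be told apart. At the tagged gene, ztf-11, the highest pooled region, a thresholded peak, scored 34.1, and the regions holding its summit scored 17.3 in replicate 1 and 12.3 in replicate 2.

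PUF proteins bind short elements in the 3′ ends of messenger RNAs through their Pumilio repeats, and mostly repress translation or shorten the life of these RNAs. In C. elegans, fbf-1 and fbf-2 are known for keeping germline stem cells and for the switch from sperm to oocytes, puf-8 for germ cell proliferation and sperm development, and puf-5, puf-6, puf-7, puf-3 and puf-11 for oocytes and early embryos. puf-9 is the somatic member, known from the larval epidermis, where it takes part in the repression of hbl-1, a heterochronic gene that times larval development. No germline role is assigned here to puf-12, a more diverged member. On the chromosomes, 6 of the genes are on II, 3 on IV, and puf-9 alone is on X.

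The sequence under the puf-9 summit is shown first because it carries the only thresholded peak among the 10 genes. The stretch chrX:5841112-5841411 (WBcel235, the coordinates of ce11, plus strand) has the summit at 5841262 and is printed in the direction of puf-9, with matches to AGAGAG on either strand in capitals.

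puf-9 summit: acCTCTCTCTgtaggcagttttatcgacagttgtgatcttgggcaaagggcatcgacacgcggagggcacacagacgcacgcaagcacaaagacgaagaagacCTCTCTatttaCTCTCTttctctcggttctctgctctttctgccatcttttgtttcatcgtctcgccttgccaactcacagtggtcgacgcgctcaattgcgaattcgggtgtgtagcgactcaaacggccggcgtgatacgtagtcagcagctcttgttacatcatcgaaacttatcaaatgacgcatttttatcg

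It holds 4 matches to AGAGAG, all as CTCTCT on the puf-9 strand, of which 2 overlap at the left end. AAAGTT, the known core motif of this zinc finger family, and the GC-rich 6-mers GCGCGA and CGCGCA were searched on both strands and have no match in these 300 bases. Among windows of this length, AGAGAG occurs in 46.8% of the 188 nuclear thresholded peaks and in 13.9% of the 20201 pooled nuclear regions. AAAGTT occurs in 18.6% and 48.2% of them. The GC content is 49.3% in the 300 bases and 48.5% within 50 bp of the summit, where thresholded nuclear summits average 48.8% ± 8.03 (SD, 188 summits) and pooled ones 33.6% ± 9.25 (SD, 20201 summits). Within 50 bp, 73.3% of the bases are C or T on the puf-9 strand. Counting in each case the strand richer in C and T, the median is 57.4% at thresholded summits and 55.4% at pooled summits, and 94.7% and 98.8% of them lie below puf-9. This measure was chosen after the sequence was seen.

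For comparison, 3 windows reaching 50 bp to each side of weaker summits of the family are given, each in the direction of its gene. The first, chrX:5841415-5841515 (plus strand), follows the stretch above almost directly and surrounds the second pooled summit of puf-9. The others lie in introns, at the pooled summit of puf-8 (chrII:7298004-7298104, minus strand) and at the replicate 1 summit of puf-7 (chrIV:5489069-5489169, plus strand).

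puf-9 weak summit: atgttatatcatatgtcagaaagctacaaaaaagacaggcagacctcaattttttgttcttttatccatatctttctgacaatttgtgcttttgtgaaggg

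puf-8: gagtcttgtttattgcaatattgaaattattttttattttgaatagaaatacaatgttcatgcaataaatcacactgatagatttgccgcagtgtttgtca

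puf-7: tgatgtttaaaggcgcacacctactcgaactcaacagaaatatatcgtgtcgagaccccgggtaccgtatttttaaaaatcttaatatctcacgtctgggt

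None of these 3 windows holds any of the 4 motifs, so nothing is in capitals. They were printed because they hold no UTR or neighbouring exon, and weak summits with a motif exist: within 50 bp, the pooled summit in the 3′ UTR of puf-9 has CGCGCA, that of puf-12 has AGAGAG and the replicate 2 summit of puf-3 has AAAGTT. Their GC content is 32.7% at the second puf-9 summit, 27.7% at puf-8 and 41.6% at puf-7. Over the 6 members with a summit in any list, AAAGTT lies within 50 bp of the highest summit at puf-3 alone, and AGAGAG at puf-9 and puf-12. Among pooled nuclear summits, AAAGTT lies that close in 20.1% and AGAGAG in 5.26%, against 3.72% and 26.6% at the thresholded ones.

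A high peak lay upstream of puf-9. puf-9 (WBGene00004245, chromosome X, 5841592 to 5845987, plus strand) has 1 annotated transcript, and the peak, from 5841074 to 5841449, has its summit 330 bp upstream of its start. The score was 93.6 in the pooled and thresholded lists, 53.6 in replicate 1 and 30.5 in replicate 2. The mean over the replicates was 42.0 ± 16.3 (SD, n = 2). The 2 lists are not on 1 scale, so this SD also holds their difference in scale and does not measure biological spread alone. Both replicates therefore show the peak, and their summits, 308 and 317 bp upstream, lie within 22 bp of each other and of the pooled summit. In the pooled list the peak ranked 8 of 20201 nuclear regions and stood at 8.01 times their median. It ranked 6 of 29974 in replicate 1, at 8.10 times the median, and 20 of 29974 in replicate 2, at 5.46 times the median. With the regions outside the nuclear chromosomes included, it ranked 30 of 20223 in the pooled list. In replicates 1 and 2 it then ranked 32 and 46 of 30000.

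Replicate 1 scored higher than replicate 2 at puf-9, by a ratio of 1.76. The median ratio over the 181 nuclear thresholded peaks present in both lists was 1.26, with 10th and 90th percentiles of 0.73 and 2.30, and 74.0% of them had a lower ratio than puf-9. The gap between the replicates at puf-9 is thus within the range of other peaks. The 2 lists come from separate calls, and ratios between them have no absolute meaning.

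**Figure D1:**
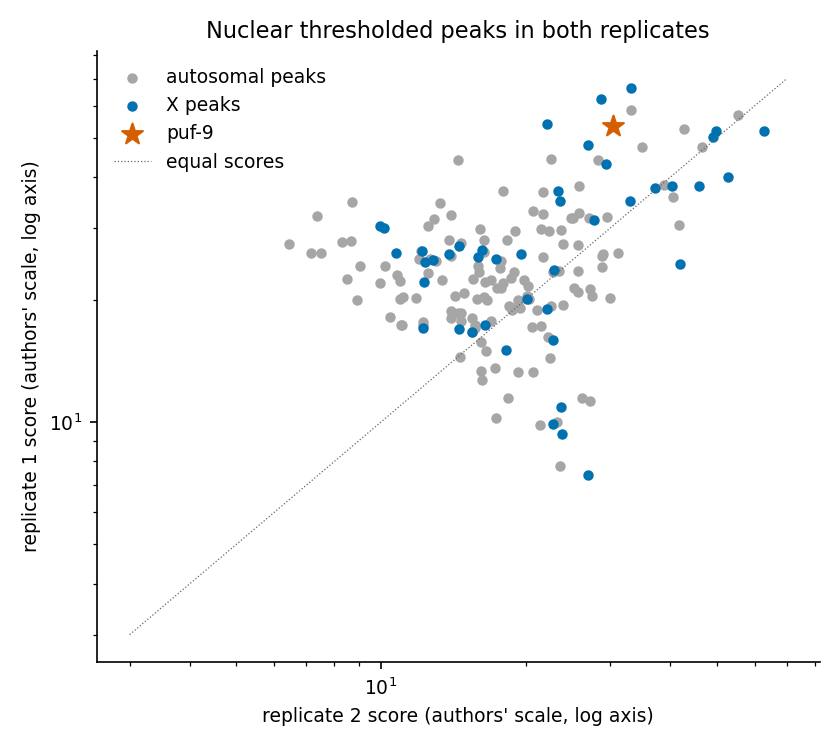
Score in replicate 1 (vertical, log axis) against replicate 2 (horizontal, log axis) for the 181 nuclear thresholded peaks found in both lists, with X peaks in blue, autosomal peaks in grey and the puf-9 peak as a star. The puf-9 star is at 53.6 and 30.5, above the line of equal scores and in the upper right of the cloud.

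The puf-9 summit does not lie in unannotated sequence. It falls inside a pair of short noncoding RNA genes that overlap on opposite strands, W06B11.9 (5841185 to 5841361, plus strand) and W06B11.7 (5841170 to 5841350, minus strand). Their 5′ ends are 77 and 88 bp from it, nearer than that of puf-9. The nearest other protein-coding gene, dct-11 (5838039 to 5839778, minus strand), is transcribed away from puf-9, and the summit is 1484 bp upstream of its 5′ end, close to the 1500 bp limit used here. The labels and lists do not assign the peak to any of these genes.

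Other regions in the puf-9 window were weak. The pooled list had 2 of them, 127 bp upstream with a score of 10.6, and at 3639 bp in the 3′ UTR with a score of 11.8. The first overlaps the main peak, since it extends from 5841277 to 5841652. Replicate 1 had a counterpart of each, with a score of 4.91 just upstream of the 5′ end and of 5.92 at 3710 bp. Replicate 2 had neither, but had a region 1299 bp upstream (4.33) and one in a coding exon, at 971 bp (5.21). No weak region was thus found near the same place in both replicates. The deposited −log10 q was 0.043 and 0.070 at the 2 weak pooled summits, against 1.65, the top of that list, at the main summit.

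**Figure D2:**
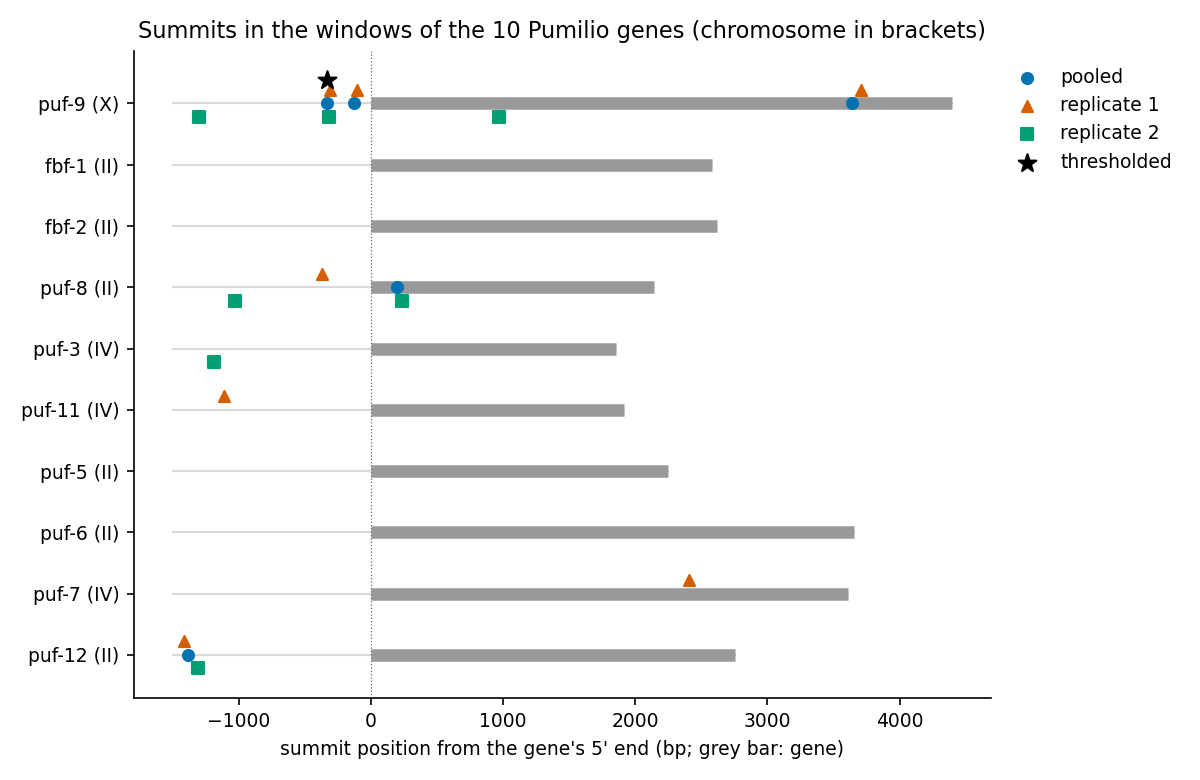
Position of each summit relative to the 5′ end of its gene (horizontal, in bp) for the 10 genes, with the gene as a grey bar and 1 symbol per list. Stacked symbols of all 4 lists stand close to 330 bp upstream of puf-9, whereas fbf-1, fbf-2, puf-5 and puf-6 have none.

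The 9 autosomal members had no thresholded peak and few regions in the other lists. The pooled regions at puf-8 and puf-12 had a deposited −log10 q of 0.029 and 0.079. Of the 10 genes only puf-9 held a thresholded peak, against 1.12% of all genes with the same window and 1.14% of the 2731 genes on X. As puf-9 was chosen for this peak, the count says nothing about the family. A pooled region was present at puf-9, puf-8 and puf-12, 3 of 10, where 51.3% of all genes had one, 54.3% of genes on X and 50.8% of autosomal genes. In the replicate 1 list 5 of 10 had a region (66.5% of all genes), in the replicate 2 list 4 of 10 (66.3%), and in both lists 3 of 10 (49.5%).

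Among the germline stem cell genes, fbf-1 (WBGene00001401, chromosome II, 6078263 to 6080843) and fbf-2 (WBGene00001402, II, 6088863 to 6091480) had no region in any of the 4 lists. The nearest pooled summit to fbf-1 lay 412 bp beyond the end of the gene with a score of 10.8, and the same region was the nearest to fbf-2, at 11012 bp. At puf-8 (WBGene00004244, II, 7296110 to 7298247) only weak regions were listed. The pooled summit lay in an intron, 193 bp downstream of the 5′ end, and scored 9.86, and 16.4% of pooled nuclear regions scored lower. Replicate 2 had a summit 237 bp downstream at 7.34 and another 1026 bp upstream at 5.14, which is 69 bp upstream of the divergent gene C30G12.1. Replicate 1 had 1 summit, 370 bp upstream, at 4.85, near the lowest score of its list. The replicates thus had no shared summit at puf-8.

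Of the genes that act in oocytes and embryos, puf-5 (WBGene00004241, II, 8575541 to 8577787) and puf-6 (WBGene00004242, II, 13039792 to 13043445) had no region in any list. A single replicate list had a region at each of the others. At puf-7 (WBGene00004243, IV, 5486713 to 5490322) replicate 1 had an intronic summit at 2406 bp with a score of 7.68. At puf-11 (WBGene00022257, IV, 6421585 to 6423497) replicate 1 had a summit 1116 bp upstream at 4.94, inside the neighbouring gene htp-2, which encodes a meiotic chromosome axis protein. At puf-3 (WBGene00004239, IV, 13510307 to 13512162) replicate 2 had a summit 1186 bp upstream at 6.43, inside the gene afmd-2, whose span also holds puf-3. The count at puf-3 depends on the 1500 bp limit. A pooled summit (9.74) lay 1718 bp upstream, 218 bp outside the window, with a replicate 1 summit (10.2) at 1737 bp. None of puf-7, puf-11 and puf-3 had a pooled region in its window, and all stayed far under the score of puf-9 in the same list.

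puf-12 (WBGene00014165, II, 10100310 to 10103061) was the only autosomal member with a region at one place in both replicates. The summits lay 1382 bp upstream in the pooled list (score 12.1), 1412 bp upstream in replicate 1 (8.30) and 1310 bp upstream in replicate 2 (4.79), just inside the 1500 bp limit. This place is within the neighbouring gene pas-7, which encodes a proteasome subunit, and the pooled summit is in its 3′ UTR. In the pooled list 55.7% of nuclear regions scored lower. The highest score at puf-9 was 7.72 times that at puf-12 in the pooled list. In replicate 1 it was 6.45 times that of the next member, puf-12, and in replicate 2 it was 4.15 times that of the next, puf-8.

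**Figure D3:**
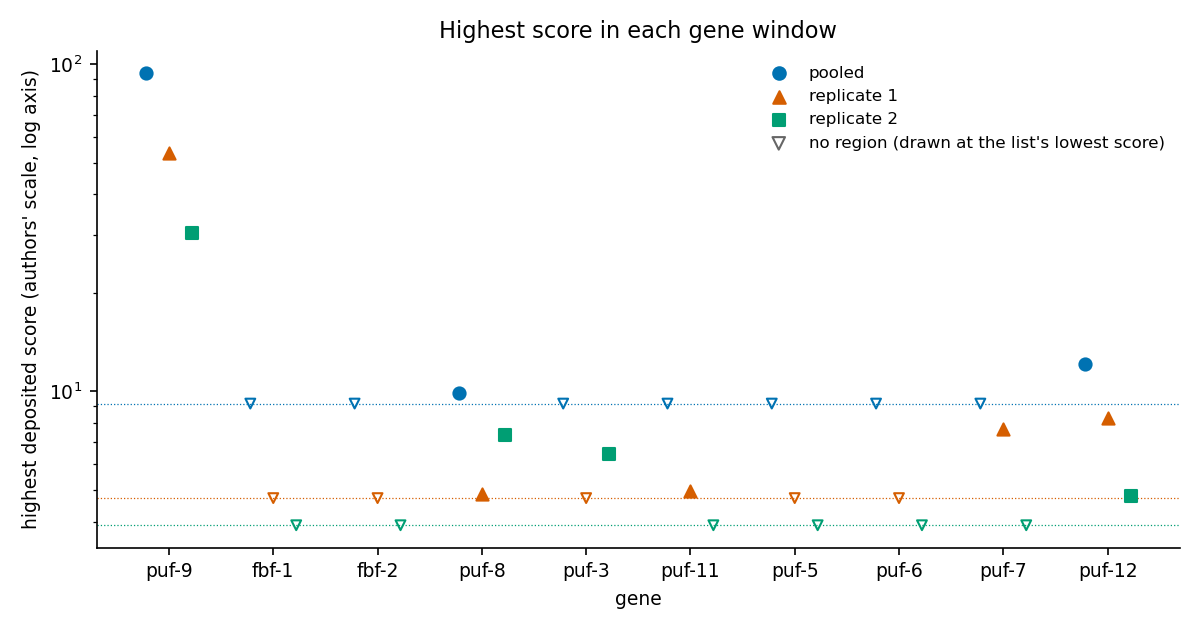
Highest score in the window of each gene (vertical, log axis) in the pooled and replicate lists, with open triangles at the lowest score of a list where it had no region. puf-9 is at 93.6, 53.6 and 30.5, and all other points are at or under 12.1.

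On the ranking of all pooled nuclear regions, the peak of puf-9 stood at the top and the other pooled regions of the family in the bulk. The ranks were 8 for the puf-9 peak, 8940 for puf-12, 9741 and 13781 for the weak regions of puf-9, and 16887 for puf-8. The lowest nuclear thresholded peak scored 32.9, and no family region other than the peak of puf-9 came near it. The thresholded nuclear peaks had a median of 40.5, and puf-9 stood at 2.31 times this value.

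**Figure D4:**
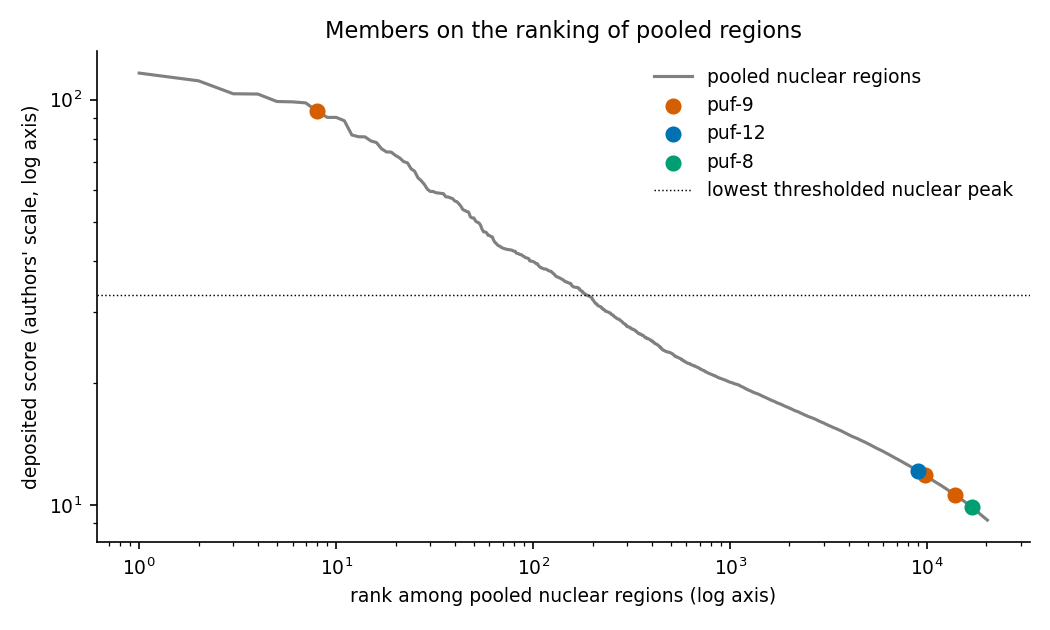
Score (vertical, log axis) of the 20201 pooled nuclear regions by rank (horizontal, log axis), with the regions of puf-9, puf-12 and puf-8 as coloured points and the lowest thresholded nuclear peak as a dotted line. One puf-9 point is at rank 8 and the other points lie below the dotted line, at ranks from 8940 to 16887.

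Because long windows catch more regions, density was also computed. It counts all listed regions, those of low −log10 q included, and is not a density of binding sites. The 9 autosomal windows add up to 36.9 kb and held 0.054 pooled regions per kb, against 0.204 per kb over all autosomal genes. In each replicate list they held 0.108 per kb, against 0.306 in replicate 1 and 0.300 in replicate 2 over autosomal genes. Of the 5085 autosomal genes with windows in the same range of lengths, 51.9% had a pooled region, and of the 9 members 2 had one. puf-9 had 0.509 pooled regions per kb, or 0.339 with overlapping regions merged, and this density includes the peak for which it was chosen. Genes on X had 0.183 on average.

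Several members have closely similar copies in the family. The coding sequences of puf-6 and puf-7 are 98.5% identical, those of fbf-1 and fbf-2 91.7%, and those of puf-3 and puf-11 90.2%, while no other pair exceeds 58.1%. Only 47.0% of the 50-mers in the puf-6 window and 45.6% in the puf-7 window occur once in the nuclear genome, and the values are 74.3% at fbf-1 and 87.2% at fbf-2. At puf-9, puf-8, puf-5 and puf-12 all 50-mers are unique, and at puf-3 and puf-11 99.5% are. The sources used here do not say how reads that match several places were treated, and the part of these copies in the low densities was not tested. Among the 5 autosomal members with at least 95% unique 50-mers, chosen after the data were seen, 2 had a pooled region, where 50.8% of autosomal genes had one. Their density was 0.109 pooled regions per kb against 0.204 over autosomal genes, 0.163 against 0.306 in replicate 1 and 0.217 against 0.300 in replicate 2. With 36-mers the unique shares fell to 36.8% at both puf-6 and puf-7 and 65.8% at fbf-1.

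Within 20 kb of the 5′ end, puf-9 had 9 pooled regions, and the other members had from 2 at fbf-1 and fbf-2 to 9 at puf-5. Over all genes the median was 7, with 10th and 90th percentiles of 3 and 12, so the neighbourhood of puf-9 is not crowded with regions. Apart from the peak, the highest pooled score there was 20.5, at a summit 5758 bp downstream of the 5′ end, past the end of puf-9 and 1750 bp upstream of atat-2, a tubulin acetyltransferase gene. Both replicates had a region at it, with scores of 10.2 and 11.9. A replicate 2 summit at 4401 bp, with a score of 6.35, lay just past the end of the gene, which is 4396 bp long. hbl-1 ends 13.8 kb upstream of puf-9 on the same strand of X, and the 3 pooled regions between 12 and 15 kb upstream of puf-9, at the end of hbl-1 and just beyond it, scored from 10.7 to 13.2. Among the other members, puf-5 had a thresholded peak within 20 kb, 14089 bp upstream with a score of 39.4, beside iff-2, a translation factor gene. That peak scored 25.3 in replicate 1, and no replicate 2 region held its summit. The nearest replicate 2 summit lay 13912 bp upstream of puf-5 and scored 11.8.

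**Figure D5:**
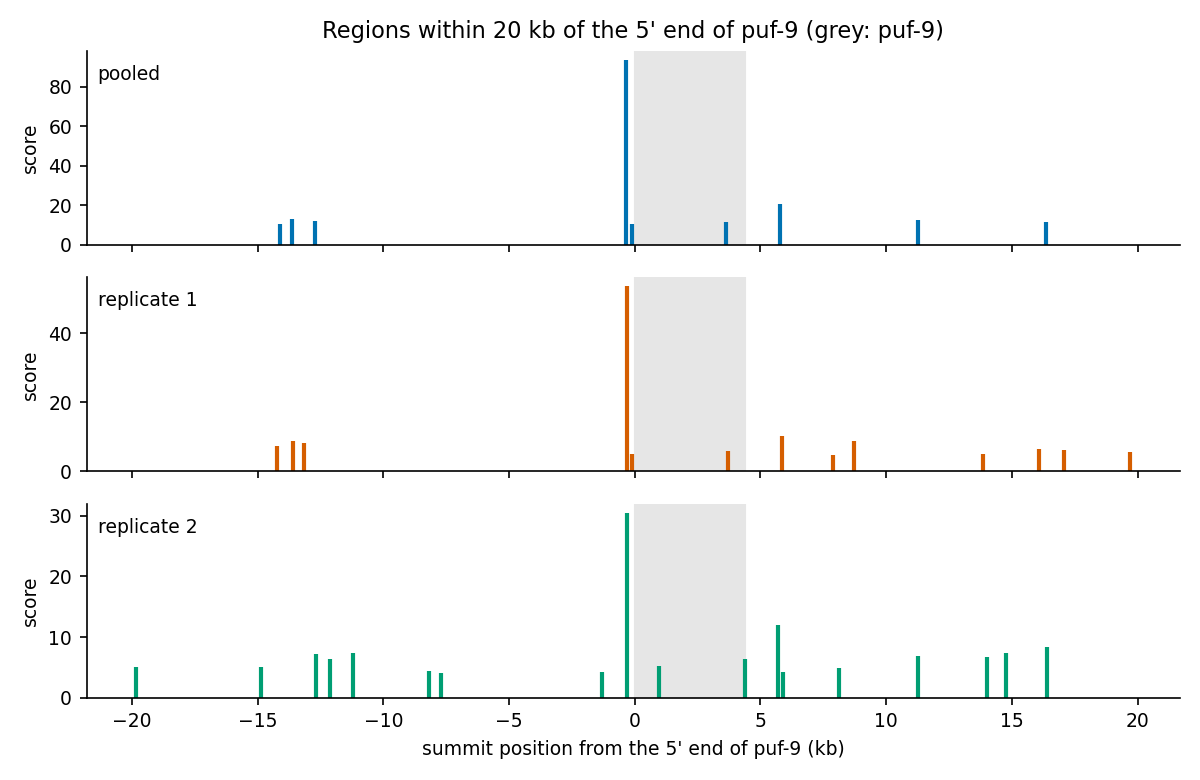
Score of each region (vertical) by its summit's distance from the 5′ end of puf-9 (horizontal, in kb) in the pooled list and both replicates, with puf-9 in grey. One bar, just upstream of the gene, exceeds all others in each list, and the next pooled bar, at 20.5, is past the end of the gene.

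The peaks most like that of puf-9 in thresholded score were the 3 above and the 3 below it. Above came the summit 724 bp downstream of the 5′ end of ZK1248.17 (chromosome II, score 99.0), which also lies near H41C03.3, an X summit 3981 bp from W02H3.3 (98.8), and an X summit within mom-1 (98.2), a gene of Wnt secretion. Below came an X summit 4896 bp upstream of xol-1 (90.4), an early switch in sex determination, one 590 bp upstream of egg-5 (90.4), which acts at the oocyte-to-embryo transition, and an X summit within Y41G9A.17 (88.7). In replicate 1 these 6 scored from 40.0 to 66.4, around the 53.6 of puf-9. In replicate 2 they scored from 28.8 to 52.7, and puf-9, at 30.5, was lower than all but the xol-1 peak. Within 1500 bp of a protein-coding 5′ end lay the ZK1248.17 and egg-5 peaks of the 6, as did that of puf-9.

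4 lists were set beside the family: partners of PUF proteins, their known targets, heterochronic genes and other germline RNA regulators. Over all genes, 51.3% had a pooled region and 1.12% a thresholded peak, so lists of this size with no thresholded peak are no result. Of 15 partners found in the annotation, such as the Nanos, CPEB and GLD proteins, none had a thresholded peak and 10 had a pooled region. The highest were larp-1 (27.5), ccf-1 (17.5), which encodes a deadenylase subunit, and nos-1 (15.9). Of 9 known PUF targets none had a thresholded peak and 6 had a pooled region, led by pal-1 (29.8), mpk-1 (15.0) and lip-1 (12.3). hbl-1, the target tied to puf-9, reached 10.7 in the pooled list, 11.5 in replicate 1 and 5.09 in replicate 2. These are the highest scores in its window and do not lie at one place. The pooled summit is 5327 bp downstream of the 5′ end of hbl-1, and the replicate 1 region near that summit scored 7.27.

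Of 12 heterochronic genes all had a pooled region (51.3% of all genes) and 2 a thresholded peak (1.12% of all genes), daf-12 (42.6), which encodes a steroid hormone receptor, and lin-41 (33.8), with lin-66 (32.0) next. Their median window was 8303 bp, against 3527 bp over all genes and 4100 bp over the 10 PUF genes, and their density was 0.342 pooled regions per kb. Of 15 other germline RNA regulators 6 (40%) had a pooled region, against 51.3% of all genes, and 2 had a thresholded peak, against 1.12%, spn-4 (36.5) and lin-41, which is in both lists, followed by mex-3 (19.2). The peak counted for spn-4 lies 465 bp upstream of its 5′ end and nearer to another gene, 83 bp upstream of spe-39. The density of these regulators was 0.170 per kb, that of the partners 0.292 and that of the targets 0.273, beside 0.201 over all genes. The daf-12 and spn-4 peaks scored 26.5 and 26.1 in replicate 1 and 16.3 and 7.51 in replicate 2, below puf-9 in each list. The lin-41 peak, counted in both lists of genes, scored 28.8 in replicate 1, and no replicate 2 region held its summit. It lies 1469 bp upstream of the 5′ end of lin-41, so its count in both lists depends on the 1500 bp limit.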

How the data were processed

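The ce11 regions of the ZTF-11 experiment were used as the authors deposited them, including the background that the pooled list holds by its name. Per the file headers (text notes beside the lists), calling was done against a control, separately for replicate 1, replicate 2 and their pool, and the authors filtered these lists by the irreproducible discovery rate to obtain the thresholded peaks. The sources used here do not name the aligner, the caller, their versions or the threshold. The deposited score is the signal value of a region against its control. The −log10 q that the authors deposited has 1 value, 1.65, over all thresholded peaks and ranked nothing. Summits follow from the deposited offsets. Depth is unknown.

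Gene positions came from Ensembl release 115 on WBcel235, and sequences from RefSeq on the same assembly, past whose chromosome ends no region extended. Region counts in gene windows were computed for all 19973 nuclear protein-coding genes with Python 3.11.15, numpy 2.4.6 and pandas 2.3.3, and coding sequences were aligned with Biopython 1.88. Counting was tested on simulated data. Named were the 10 members, neighbours of their summits, the 3 peaks above and 3 below puf-9 in score, ztf-11, and in each list the genes with thresholded peaks and the 3 of highest score. The members and lists were chosen with earlier results of these data known, and no test was made, since there is 1 group and no contrast. Alternatives changed the window, the overlap rule, the list and the motif window. The ce10 lists were not used.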

Additional observations from a re-analysis of the deposited data

How the results depend on the processing

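The single thresholded peak, at puf-9, was counted at 1 of 10 members under every window, overlap rule and threshold tried. The number of members with a pooled region rose from 3 to 5 with 3000 bp upstream. It fell to 1, puf-9, among the upper 10% of pooled regions. The number with a region of both replicates was 1 among the upper 10% of each list. Shares of all genes with 3000 bp upstream or in the upper 10% are not given here, so these counts are not read as results. Without replicate 1 the number of members with a region was 4, and without replicate 2 it was 5. These are the counts in the longer list of the other replicate, where 66.3% and 66.5% of all genes had a region. In the pooled list 51.3% had one. The puf-9 score was 30.5 to 53.6 without 1 replicate, which by construction uses lists of another scale. Its ratio to the next member was 9.50 with 500 bp upstream, which leaves out the puf-12 region, and 4.15 to 6.45 without 1 replicate. The density at puf-9 was 0.613 regions per kb with 500 bp upstream, 0.406 with 3000 bp, and 0.339 with overlapping regions merged. Of the 6 members with a summit in any list, the AAAGTT core lay within 25 bp of the highest summit at 0 and within 100 bp at 3. Among pooled nuclear summits the share with AAAGTT also rose with the window, from 10.47% within 25 bp to 36.01% within 100 bp. The change in the member count is therefore not read as a result. The restriction to members with at least 95% unique 50-mers was chosen after seeing the data. No paired analysis was possible because there is only 1 group. Scores of replicates cannot be set on 1 scale without reads, and regions under the lowest listed scores were not detectable.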
